A study of Rattus norvegicus with 18 samples.

Results

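The RNA of the rat nucleus pulposus (NP) at 10 months of age, a mature adult, was compared with that at 2 months, a young adult. The NP is the gel-like centre of the intervertebral disc, which bears spinal load by holding water. The comparison rests on 6 input libraries, labelled M10 and M2 with replicates 1 to 3 each, out of the 9 input libraries and 18 libraries of the series. The other 9 are immunoprecipitated (IP) libraries for N6-methyladenosine (m6A), a methyl mark on RNA bases, and their values are not analysed here. Both groups consist of rats from which disc tissue was taken, with no treatment or genetic change given, so age is the only labelled difference. Strain, sex, disc level and whether the replicates are separate animals or pools are not in the labels, so p-values measure only how these libraries vary, which can be technical variation. Genes were tested if FPKM (mapped fragments scaled for transcript length and for the size of the library) reached 1 in 3 or more input libraries, which left 11708 of the 18923 genes in the table. In the isoform table, 2792 of 24143 transcripts were tested for a change of their share of the gene.

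Rat NP cells come from the embryonic notochord and keep keratins, the transcription factor brachyury (Tbxt) and galectin-3 for long after birth. They live without blood vessels, at low oxygen and high osmolarity, and take most of their energy from glycolysis. The matrix they make is rich in aggrecan, whose sulfated sugar chains draw in water, held in a mesh of collagen II and finer collagens. With age the disc slowly loses cells and aggrecan, and collagen itself is hardly replaced once laid down.

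Of the 11708 genes tested, 2913 (24.9%) rose and 1894 (16.2%) fell from 2 to 10 months at a Benjamini-Hochberg adjusted p under 0.05 (limma on log2(FPKM + 1), 3 libraries per age). Most changes were small. The median size of a called change was 0.27 on this log2(FPKM + 1) scale, and 44.8% of the calls were smaller than 0.25. By at least 2-fold in FPKM + 1, 31 genes rose and 41 fell, which leaves out some low genes with a 2-fold change in FPKM itself. The 3 libraries of one age lay entirely above or below those of the other for 6301 genes (53.8%), so groups that do not overlap are the usual case here and not a mark of any single list. The direction of the small changes depended on scaling. After median-of-ratios scaling 2330 genes rose and 2440 fell, after quantile normalization 2242 and 2299, with a length trend removed 2229 and 2415, and with a fixed sum outside ribosomal protein and mitochondrial genes 3290 and 1656. As deposited, the median change over all genes was 0.04. Below, "rose" and "fell" are used for genes that passed the test, levels are mean FPKM ± SD of 3 libraries, changes are log2 changes on log2(FPKM + 1), 10 minus 2 months, with their SE where given, and a list's count is to be read against the 24.9% and 16.2%. Counts by another scaling stand beside a list where the balance of rises and falls moved.

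Aligned bases per library, read off the factor between coverage and FPKM, came to 4.77 to 5.04 gigabases for 2 months and 4.35 to 4.74 for 10 months, and 11331 to 11348 and 11439 to 11447 genes reached an FPKM of 1. Ribosomal protein genes held 14.2 to 14.5% of all FPKM at 2 months and 16.5 to 16.8% at 10 months. Longer transcripts rose more often, 32.3% of genes in the upper of 4 equal bins of length against 18.5% in the lowest, while 17.0% and 14.7% fell. Whether RNA quality has a part in this was not tested. In bulk tissue, fewer cells of a type and less RNA per cell cannot be told apart.

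**Figure D1:**
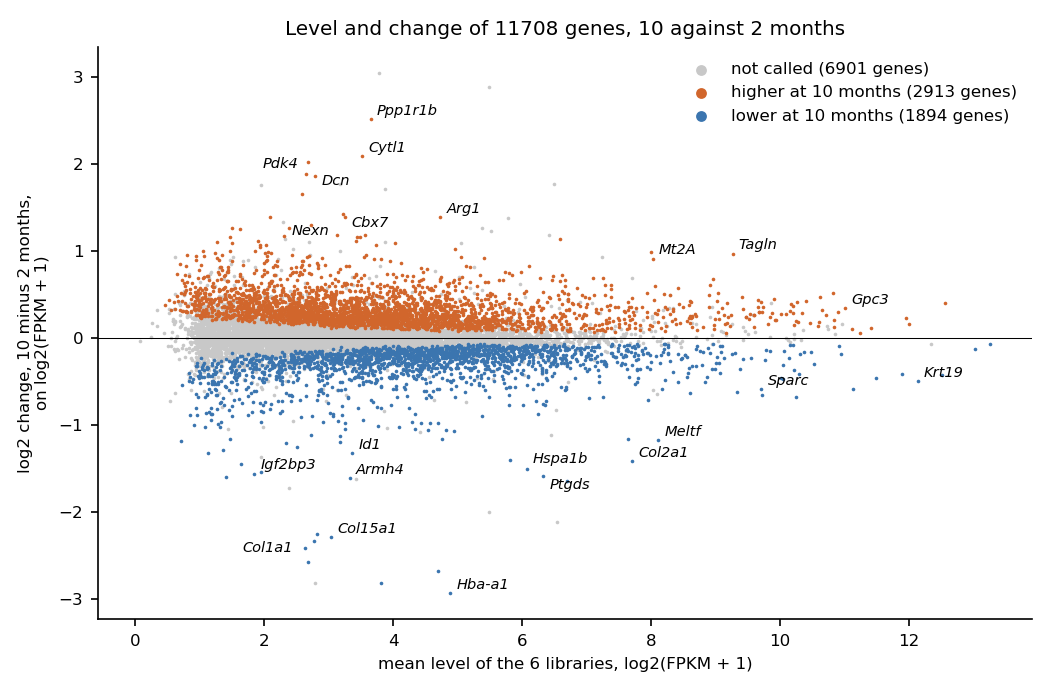
Log2 change from 2 to 10 months (vertical axis) against the mean log2(FPKM + 1) of the 6 libraries (horizontal axis) for the 11708 tested genes, 1 point per gene. The 2913 rising genes (orange) and 1894 falling genes (blue) lie mostly within 1 log2 unit of 0, and a few low to middling genes such as Ppp1r1b, Cytl1, Col1a1 and Hba-a1 lie beyond 2.

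Ppp1r1b, which encodes the protein phosphatase 1 inhibitor DARPP-32, rose the most among the genes named by rule. It measured 2.998, 2.69 and 2.57 FPKM at 2 months and 21.1, 20.6 and 19.6 at 10 months (log2 change 2.52 ± 0.06 SE, adjusted p = 2.9e-06). Every 10-month library was above every 2-month library, by a wide gap. Cytl1, a small secreted protein made by cartilage cells and a marker of NP, measured 3.34, 3.33 and 3.42 FPKM at 2 months and 16.2, 18.2 and 18.3 at 10 months (2.09 ± 0.06 SE, adjusted p = 5.1e-06). Pdk4, the kinase that shuts off pyruvate dehydrogenase when fat is burned, went from 1.69 ± 0.0600 to 8.91 ± 0.204 FPKM (1.88 ± 0.05 SE, adjusted p = 4.5e-06). Arg1, the arginase that turns arginine into ornithine, is better known from liver and macrophages, and here it went from 13.7 ± 0.792 to 37.4 ± 1.35 FPKM. Other genes with a large rise were Lrtm2, a leucine-rich repeat membrane protein (1.66), Cbx7, a Polycomb protein that silences the Ink4a locus (1.39), Smagp, a small transmembrane adhesion protein (1.29), Bcl6, a transcriptional repressor (1.26), and Hsf4, a heat shock factor best known from the lens (1.18). For the genes of this paragraph the rule itself asked that the ages do not overlap. The RNA component RNase_MRP also rose (1.39), but it is a small RNA without a poly(A) tail, measured here in poly(A)-selected RNA.

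Among the falling genes, Ptgds, the synthase of prostaglandin D2, was among those with the smallest adjusted p. It measured 119, 120.0 and 119 FPKM at 2 months and 38.5, 38.1 and 40.3 at 10 months (−1.59 ± 0.03 SE, adjusted p = 1.2e-06). The 3 values of each age lay close together, and the ages far apart. The 20-month libraries had 80.1 to 80.9% of their aligned bases on listed transcripts, against 85.6 to 86.1% at 2 and 10 months. Their commonest single read length was 141 bases, against 132 at 2 and 10 months. In them Ptgds stood at 19.9, 18.6 and 11.3 FPKM. These values were lower again than at 10 months, a comparison not tested here. Any part of the library differences in this was not tested. Armh4, a membrane protein with armadillo-like helices, fell from 14.2 ± 0.645 to 3.97 ± 0.248 FPKM. Clmp, an adhesion protein of cell junctions, changed by −1.25, and Adm2, a peptide hormone of the calcitonin family also called intermedin, by −1.21. Id1, an inhibitor of basic helix-loop-helix factors that BMP signals switch on, fell from 13.8 ± 1.06 to 4.94 ± 0.850 FPKM. Collagen, hemoglobin and heat shock genes make up the rest of the 12 largest falls and are described with their groups.

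The markers of the NP itself mostly fell, from very high levels. Of 27 listed genes 25 were matched and 20 tested, of which 3 rose and 15 fell, with a median change of −0.15. Summed over the list they stood at 41444 to 42933 FPKM at 2 months and 36172 to 36544 at 10 months. The keratins, intermediate filaments that mark notochordal cells, were among the most abundant transcripts of all. Krt19 measured 5129, 5187 and 5488 FPKM at 2 months and 3687, 3719 and 3779.5 at 10 months (−0.50 ± 0.03 SE, adjusted p = 5.0e-05). Krt8 changed by −0.41 and Krt18 by −0.47. Lgals3, which encodes galectin-3, measured 2662, 2712 and 2689 FPKM at 2 months and 1783, 1786 and 1790.1 at 10 months. Its groups, like those of the keratins, did not overlap. Ncam1, a neural adhesion molecule, fell from 17.1 ± 0.913 to 7.99 ± 0.143 FPKM, with no overlap. Sox9, the master factor of cartilage genes, fell from 51.4 ± 1.71 to 41.2 ± 2.08 FPKM (adjusted p = 0.00166, and adjusted p = 0.0736 in a fit over all 9 input libraries, which adds the 20-month ones). Tbxt measured 2377, 2351 and 2379 FPKM at 2 months and 2462, 2457 and 2486 at 10 months. This rise of 0.06 passed the test (adjusted p = 0.0266) but not after median-of-ratios scaling (adjusted p = 0.546), nor when any library except 2-month replicate 3 was left out (largest adjusted p = 0.102). Vim, the filament of mesenchymal cells, went from 8696 ± 50.1 to 7962 ± 202 FPKM (adjusted p = 0.00510), and Ca3, a carbonic anhydrase, from 9992 ± 137 to 9507 ± 107 FPKM (adjusted p = 0.0257). Neither passed after quantile normalization, and Ca3 did not without 2-month replicate 2 or 10-month replicate 2 or 3 (largest adjusted p = 0.0745), with a fixed sum that leaves out ribosomal protein and mitochondrial genes (adjusted p = 0.0785) or in the fit over all 9 input libraries (adjusted p = 0.256). Cdh6, a cadherin, and Cytl1 rose, the former from 2.69 ± 0.166 to 6.10 ± 0.128 FPKM. Shh was at or near 0 in the 6 libraries, and Foxa1, Foxa2, Pax1 and Foxf1 were under 1 FPKM. The tissue thus carried the keratin, Tbxt, Cd24 and galectin set of markers, with these other members of the list under 1 FPKM.

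Several genes that mark other cell types a dissected disc could hold changed. Globin genes of red blood cells fell, with Hba-a1, an alpha globin, at 53.2, 47.4 and 53.7 FPKM at 2 months and 6.65, 5.83 and 5.17 at 10 months. Hba-a2 changed by −2.82 and Hbb by −2.26, and Tfrc, the transferrin receptor used by many cells, rose by 0.43. The alpha globin copies are near-identical, as are the copies of Hbb, a beta globin, so the split of reads among copies of the same kind is uncertain. Of 17 listed red blood cell genes, 10 were matched, 5 averaged under 1 FPKM, and 1 of the 5 tested rose and 4 fell. Summed, they stood at 118 to 129 FPKM at 2 months and 55.5 to 59.5 at 10 months. Alas2, Slc4a1, Ahsp, Epb42 and Klf1, other genes of the red cell lineage, were under 1 FPKM in all 6 libraries and were not tested. Of these, Alas2 and Slc4a1 were at 0 in the 3 libraries of 10 months, and Ahsp averaged 0.623 FPKM at 2 months and 0.709 at 10 months. Of 21 listed skeletal muscle genes, 16 were matched, 6 averaged under 1 FPKM, and 1 of the 10 tested rose and 5 fell. The list summed to 55.3 to 59.1 FPKM at 2 months and 50.5 to 51.6 at 10 months. Acta1, the skeletal actin, fell from 8.99 ± 0.993 to 4.95 ± 0.574 FPKM, Myl1 changed by −0.71, neither of them called in a fit over all 9 input libraries (adjusted p = 0.681 and adjusted p = 0.629), and Des, which is made in several contractile cells, by 0.72. Of 15 listed osteoblast and osteocyte genes, 13 were matched, 9 averaged under 1 FPKM, and 0 of the 4 tested rose and 4 fell. In sum they reached 6858 to 6935 FPKM at 2 months and 5043 to 5269 at 10 months. All 4 tested osteoblast genes fell, but Spp1 and Pth1r are also NP genes at high levels here. Of 11 listed osteoclast genes, 8 were matched, 5 averaged under 1 FPKM, with Atp6v0d2 at 0 in all 6, and 0 of the 3 tested rose and 2 fell. Together they came to 21.1 to 22.3 FPKM at 2 months and 14.0 to 15.4 at 10 months. Acp5, an osteoclast phosphatase, fell from 15.2 ± 0.492 to 8.73 ± 0.509 FPKM, and Nfatc1 passed the test in the full set and not without 2-month replicate 2 or 3 or 10-month replicate 2 (adjusted p = 0.0543 at the largest). Of 26 listed macrophage and other immune cell genes, 21 were matched, 16 averaged under 1 FPKM, and 1 of the 5 tested rose and 1 fell. Their sum over the list was 25.2 to 26.6 FPKM at 2 months and 28.2 to 30.0 at 10 months. Csf1r, the receptor of macrophage growth factor, rose from 7.04 ± 0.156 to 11.997 ± 0.141 FPKM, and the fall of Cd14 (−0.27) did not hold without 2-month replicate 2 or 3 or 10-month replicate 1 (adjusted p = 0.0576 at the largest).

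Of 19 listed endothelial and mural cell genes, 16 were matched, 12 averaged under 1 FPKM, and 1 of the 4 tested rose and 2 fell. Summed, they stood at 57.6 to 59.0 FPKM at 2 months and 48.4 to 48.8 at 10 months. Most of this sum came from Flt1 (27.0 FPKM at 2 months and 25.9 at 10 months) and Cspg4. The endothelial genes Cdh5, Kdr, Tek, Emcn, Esam and Plvap were under 1 FPKM in all 6 libraries. Cspg4, the proteoglycan NG2 of pericytes and immature cells, fell from 23.3 ± 0.137 to 12.9 ± 0.206 FPKM, Pdgfrb, a receptor of mural cells and fibroblasts, rose from 1.85 ± 0.288 to 4.16 ± 0.1997 FPKM, and Myh11 lost its call (−0.16) when any 1 library was left out (adjusted p = 0.0682 at the largest). Of 18 listed annulus fibrosus and tendon genes, 16 were matched, 8 averaged under 1 FPKM, and 3 of the 9 tested rose and 4 fell. The list summed to 23.6 to 26.7 FPKM at 2 months and 22.5 to 24.5 at 10 months. In this list Thy1, a fibroblast surface protein, fell from 1.84 ± 0.327 to 0.394 ± 0.177 FPKM, while Prg4, the lubricin of joint surfaces, rose by 0.66. Of 17 listed growth plate and hypertrophic chondrocyte genes, 13 were matched, 6 averaged under 1 FPKM, and 1 of the 8 tested rose and 5 fell. In sum they reached 1718 to 1756 FPKM at 2 months and 1153 to 1184 at 10 months. Most of this sum came from Acan (1202 FPKM at 2 months and 871 at 10 months) and Col2a1 (304 and 113), which NP cells also make. Col10a1, Ihh, Matn3 and Panx3 were under 1 FPKM in all 6 libraries. The counts were 0 rising without 2-month replicate 2 or without 10-month replicate 2 or without 10-month replicate 3, against the 1 and 5 with all 6 libraries. After median-of-ratios scaling 0 rose and 5 fell. Of 16 listed Schwann cell and neuron genes, 10 were matched, 4 averaged under 1 FPKM, with Stmn2 at 0 in all 6, and 0 of the 6 tested rose and 2 fell. Together they came to 944 to 977 FPKM at 2 months and 795 to 802 at 10 months. S100b, which NP cells also make, fell from 747 ± 13.8 to 581 ± 9.08 FPKM, and Mbp changed by −0.33. Of 12 listed keratinocyte and skin genes, 9 were matched, 6 averaged under 1 FPKM, with Krt5 at 0 in all 6, and 1 of the 3 tested rose and 1 fell. Their sum over the list was 217 to 227 FPKM at 2 months and 215 to 221 at 10 months. The counts were 2 rising without 2-month replicate 3, against the 1 and 1 with all 6 libraries. Dsp, the desmosomal protein desmoplakin, changed by −0.27 and Perp by 0.25. Of 10 listed adipocyte genes, 9 were matched, 8 averaged under 1 FPKM, and 1 was tested. Summed, they stood at 121 to 126 FPKM at 2 months and 82.3 to 84.5 at 10 months. The only adipocyte gene tested was Lpl, the lipase that frees fatty acids from lipoproteins, which fell from 122.8 ± 2.67 to 81.1 ± 1.49 FPKM. The part of these cells in the changes of collagen, osteopontin and lipid genes given next was not tested.

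Collagen chains had the lowest median change of the lists with at least 10 tested genes. In the list, 3 of 17 tested genes rose and 11 fell, with a median change of −0.44. Collagen II is the main fibril of cartilage and NP, and its gene Col2a1 measured 301, 299 and 311 FPKM at 2 months and 112, 112 and 116 at 10 months (−1.42 ± 0.03 SE, adjusted p = 1.2e-06). The ages were far apart. Col1a1, the chain of bone, tendon and annulus collagen, was low at 2 months and nearly gone at 10 months, with 9.35, 9.43 and 9.62 FPKM at 2 months and 1.01, 0.9999 and 0.891 at 10 months (−2.41 ± 0.05 SE, adjusted p = 2.8e-06). Col15a1, a collagen next to basement membranes, fell from 12.7 ± 1.36 to 1.81 ± 0.347 FPKM (−2.29 ± 0.11 SE, adjusted p = 2.7e-05). Type VI collagen forms the beaded net around each NP cell. Its chains fell less but from higher levels, Col6a1 from 539 ± 3.07 to 379 ± 1.895 FPKM and Col6a2 from 433 ± 2.03 to 316 ± 2.96 FPKM. Col11a1, which sits in the core of collagen II fibrils, fell from 23.1 ± 0.124 to 16.7 ± 0.406 FPKM. Col1a1 is itself on the osteoblast list given above, where Bglap, Ibsp, Sp7, Runx2, Alpl and Dmp1 were under 1 FPKM in all 6 libraries. It is also on the annulus and tendon list, where 3 of the 9 tested genes rose and 4, including the low Thy1, fell.

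The enzymes that fold, modify and crosslink collagen fell more often than they rose. In the list, 5 of 28 tested genes rose and 16 fell, with a median change of −0.16. The counts were 3 rising without 10-month replicate 1 or without 10-month replicate 2, against the 5 and 16 with all 6 libraries. Colgalt2, which puts galactose on collagen lysines, measured 26.5, 25.7 and 26.6 FPKM at 2 months and 11.8, 12.6 and 12.4 at 10 months (−1.04 ± 0.04 SE, adjusted p = 1.0e-05). No library of 10 months came near those of 2 months. Serpinh1, the collagen chaperone HSP47, fell from 168 ± 2.29 to 123.1 ± 3.33 FPKM. Loxl2, a lysyl oxidase that crosslinks fibrils, went from 59.9 ± 0.582 to 42.7 ± 1.06 FPKM, Plod1, a lysyl hydroxylase, changed by −0.37, Fkbp9, a prolyl isomerase of the endoplasmic reticulum (ER), by −0.32, and Sec24d, a coat protein of the vesicles that carry collagen, by −0.33.

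Proteoglycans moved in both directions. In the list, 7 of 16 tested genes rose and 6 fell, with a median change of 0.04. The counts were 4 rising without 2-month replicate 1 or without 10-month replicate 2, against the 7 and 6 with all 6 libraries. By other scalings, 4 rose and 7 fell after median-of-ratios scaling and 4 and 7 with the length trend removed. Acan, which encodes aggrecan, measured 1191, 1196 and 1219.7 FPKM at 2 months and 867, 861 and 884 at 10 months (−0.47 ± 0.02 SE, adjusted p = 1.6e-05). Its groups did not overlap. A pair of small leucine-rich proteoglycans that bind collagen fibrils went opposite ways. Bgn, biglycan, measured 40.8, 40.7 and 40.4 FPKM at 2 months and 18.3, 18.7 and 19.3 at 10 months (−1.07 ± 0.03 SE, adjusted p = 5.1e-06), and Dcn, decorin, 2.40, 1.56 and 2.09 FPKM at 2 months and 9.61, 10.2 and 9.64 at 10 months (1.85 ± 0.10 SE, adjusted p = 4.4e-05). In FPKM, a level per transcript length, biglycan stayed above decorin at both ages, by far less at 10 months. Fmod, fibromodulin, fell from 784 ± 18.7 to 509 ± 9.98 FPKM, and Sdc3, a cell surface heparan sulfate proteoglycan, from 188 ± 1.64 to 116 ± 2.19 FPKM. Gpc3, glypican-3, the most abundant of the tested members at 10 months, rose from 1817 ± 50.4 to 2297 ± 27.7 FPKM.

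**Figure D2:**
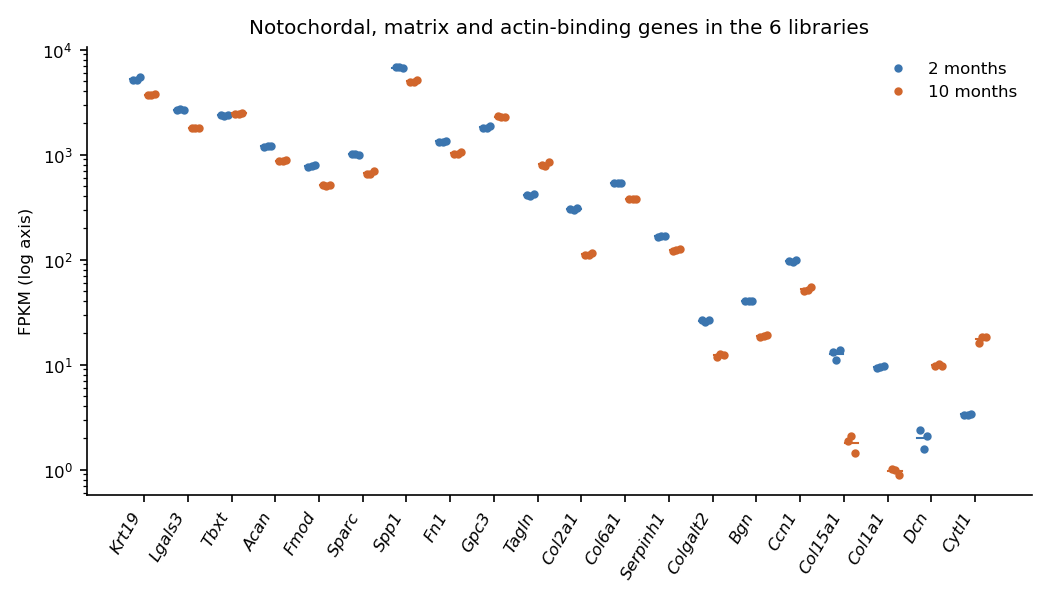
FPKM (vertical axis, log scale) of 20 notochordal, matrix and actin-binding genes in each of the 3 libraries at 2 months (blue points) and 10 months (orange points), with short bars at the group means. The genes were chosen with their values known, and the ages separate for 53.8% of all 11708 tested genes. They separate for every gene shown, widely for Col1a1, Col15a1, Dcn and Cytl1 and barely for Tbxt (2369 and 2468 FPKM on average).

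Sugar chains of proteoglycans are built from nucleotide sugars, lengthened and then sulfated. In the list, 8 of 40 tested genes rose and 14 fell, with a median change of −0.08. With the fixed sum 10 rose and 10 fell. Ugp2, which makes UDP-glucose at the start of the route, fell from 306 ± 3.65 to 186 ± 6.14 FPKM (−0.71 ± 0.03 SE, adjusted p = 1.3e-05). Chst3, the chondroitin 6-O-sulfotransferase, measured 24.2, 25.0 and 25.6 FPKM at 2 months and 12.3, 12.9 and 11.7 at 10 months (−0.97 ± 0.04 SE, adjusted p = 2.1e-05), and no 10-month library reached the 2-month range. Chst12, a chondroitin 4-O-sulfotransferase, fell from 129 ± 2.77 to 93.9 ± 2.82 FPKM, and Papss1, which makes the sulfate donor, changed by −0.30. Sulf2, which takes sulfate off heparan sulfate, rose from 34.7 ± 0.696 to 45.6 ± 1.80 FPKM.

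Matricellular and adhesive proteins fell more often than they rose. In the list, 9 of 29 tested genes rose and 15 fell, with a median change of −0.09. Spp1, osteopontin, was the most abundant of them and measured 6773, 6777 and 6697 FPKM at 2 months and 4927, 4945 and 5149 at 10 months (−0.43 ± 0.02 SE, adjusted p = 3.5e-05). Sparc, osteonectin, fell from 1006 ± 9.05 to 668 ± 22.8 FPKM, Fn1, fibronectin, from 1335 ± 11.7 to 1035 ± 19.1 FPKM, and Nid2, a basement membrane linker, from 69.7 ± 0.722 to 46.6 ± 1.22 FPKM. Ccn1, a target of the mechanical sensor YAP, measured 97.2, 94.8 and 99.2 FPKM at 2 months and 50.7, 51.8 and 54.4 at 10 months (−0.88 ± 0.03 SE, adjusted p = 1.1e-05). Its family member Ccn3, a growth-restraining protein of the same structure, rose instead, from 19.7 ± 0.365 to 31.5 ± 0.275 FPKM. Smoc1, a calcium-binding matrix protein, changed by −0.41.

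Enzymes that cut matrix and their inhibitors fell more often than they rose. In the list, 3 of 26 tested genes rose and 13 fell, with a median change of −0.11. With the fixed sum 5 rose and 11 fell. Mmp15, a membrane-bound metalloproteinase, fell from 16.0 ± 0.886 to 8.81 ± 0.160 FPKM (−0.79 ± 0.05 SE, adjusted p = 5.0e-05), and Mmp14 changed by −0.32. Plat, the tissue plasminogen activator, fell from 7.71 ± 0.449 to 3.69 ± 0.328 FPKM. The lysosomal cathepsin Ctsl changed by −0.24 and the shedding protease Adam17 by −0.20. The serine protease Htra3 was 1 of only 3 that rose, from 4.03 ± 0.151 to 8.09 ± 0.440 FPKM, beside Plaur and Mmp23.

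Signalling genes changed in both directions. In the BMP and TGF-beta list, 11 of 38 tested genes rose and 10 fell (median change −0.0001). The counts were 6 rising without 2-month replicate 1 or without 10-month replicate 2 and 7 rising without 2-month replicate 2 or without 10-month replicate 1, against the 11 and 10 with all 6 libraries. By other scalings, 7 rose and 10 fell after median-of-ratios scaling, 8 and 9 after quantile normalization and 7 and 11 with the length trend removed. The 3 TGF-beta ligands differed. Tgfb2 measured 24.4, 24.3 and 24.1 FPKM at 2 months and 44.3, 45.0 and 41.8 at 10 months (0.82 ± 0.03 SE, adjusted p = 1.3e-05), with no overlap, Tgfb1 fell from 26.9 ± 0.239 to 18.7 ± 0.0903 FPKM, and Tgfb3 changed by −0.01, which did not pass. The BMP ligand Bmp6 rose from 16.1 ± 1.14 to 26.3 ± 0.958 FPKM. Fstl3, which traps activins, fell from 36.4 ± 0.785 to 24.5 ± 0.155 FPKM. The Id genes, read-outs of BMP receptors, fell together: Id1 by 1.32, Id2 by 0.99, Id3 by 0.66 and Id4 by 0.49 on the log2 scale. Of Wnt genes, 7 of 26 tested genes rose and 7 fell (median change 0.01). Lrp5, a Wnt co-receptor, fell from 34.9 ± 0.666 to 22.8 ± 0.625 FPKM. Dkk3, a secreted member of the Dickkopf family, rose from 36.5 ± 1.02 to 52.7 ± 0.337 FPKM, as did the receptors Fzd6 (0.54) and Fzd4 (0.38).

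For insulin-like and fibroblast growth factor genes, 4 of 18 tested genes rose and 8 fell (median change 0.02). With the fixed sum 6 rose and 7 fell. Irs2, an adaptor of the insulin and IGF receptors, rose from 3.21 ± 0.141 to 6.09 ± 0.193 FPKM, while Igf2r, which clears IGF2, changed by −0.41. Stc2, a secreted inhibitor of the protease that frees IGFs, fell from 53.1 ± 0.885 to 28.1 ± 1.51 FPKM. Igf2bp3, a fetal RNA-binding protein that also reads m6A, measured 4.82, 4.67 and 3.69 FPKM at 2 months and 0.867, 0.694 and 0.907 at 10 months (−1.56 ± 0.10 SE, adjusted p = 7.1e-05), and the 10-month libraries all lay under 1 FPKM. For hedgehog and primary cilium genes, 8 of 35 tested genes rose and 4 fell (median change 0.04). The counts were 2 falling without 2-month replicate 3 or without 10-month replicate 2, against the 8 and 4 with all 6 libraries. With the length trend removed 7 rose and 6 fell. The intraflagellar transport genes Ift20 and Ift46 rose by 0.32 and 0.20, Bbs4 by 0.22, and Ift52 changed by −0.17.

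Most genes of sterol synthesis fell. Cells make cholesterol from acetyl-CoA through mevalonate and squalene, and take it up from lipoproteins. In the list, 3 of 35 tested genes rose and 23 fell, with a median change of −0.32. In the pathway term for steroid biosynthesis of the deposited table, 11 of 14 tested genes fell and none rose. Sqle, which oxidizes squalene, measured 26.9, 25.9 and 25.2 FPKM at 2 months and 17.0, 16.3 and 16.6 at 10 months (−0.62 ± 0.03 SE, adjusted p = 4.7e-05). Dhcr7, a reductase of the last steps, fell from 21.8 ± 0.331 to 13.3 ± 0.309 FPKM, and Cyp51, the lanosterol demethylase, fell the most, from 25.2 ± 1.06 to 13.3 ± 0.813 FPKM (−0.87 ± 0.05 SE, adjusted p = 5.2e-05). The ages did not overlap for these enzymes. Lss, the lanosterol synthase, changed by −0.12 and did not pass the test, but did pass with median-of-ratios factors (adjusted p = 0.0228) or with 10-month replicate 1 removed. Neither Ebp (−0.00091) nor the sterol sensor Insig1 (0.02) passed. Apoe and Abca1, which carry cholesterol out of cells, rose, Apoe from 1016 ± 6.72 to 1262 ± 7.26 FPKM and Abca1 by 0.53.

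**Figure D3:**
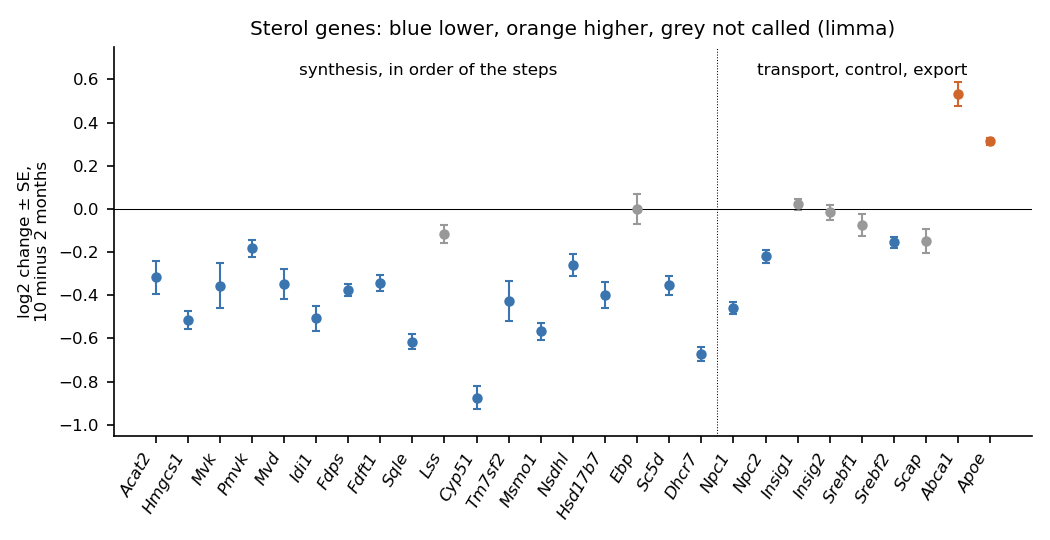
Log2 change ± SE from 2 to 10 months (vertical axis) of 18 sterol synthesis genes in the order of their steps and of 9 transport, control and export genes (horizontal axis). Blue points fell, orange points rose and grey points did not pass; 16 of the 18 synthesis genes fell, and Lss and Ebp did not pass.

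Fatty acids are made in the cytosol and burned in mitochondria and peroxisomes. Among genes for their synthesis and desaturation, 3 of 23 tested genes rose and 9 fell (median change −0.07). The counts were 1 rising without 2-month replicate 3 or without 10-month replicate 1 or without 10-month replicate 2 or without 10-month replicate 3, against the 3 and 9 with all 6 libraries. By other scalings, 1 rose and 11 fell after median-of-ratios scaling, 1 and 10 after quantile normalization and 1 and 10 with the length trend removed. The desaturases, which put double bonds into fatty acids, fell: Scd2 measured 470.2, 472 and 472 FPKM at 2 months and 304, 302 and 301 at 10 months (−0.64 ± 0.02 SE, adjusted p = 4.5e-06), Scd changed by −0.92, Fads1 by −0.86 and Fads2 by −1.03. Acly, which makes cytosolic acetyl-CoA, fell from 77.9 ± 1.34 to 57.0 ± 0.630 FPKM, and Me1, malic enzyme, changed by −0.38. Fasn, the fatty acid synthase itself, was low and did not pass (0.09). Among genes for oxidation and targets of the PPAR receptors, 14 of 37 tested genes rose and 4 fell (median change 0.04). Pdk4 rose the most, and with it Ehhadh and Hsd17b4, both enzymes of peroxisomal oxidation, by 0.56 and 0.37, and the lipid droplet coat Plin2 by 0.34. Ppard changed by −0.33. In the peroxisome term of the table, 11 of 69 genes rose and 11 fell. The counts were 7 falling without 2-month replicate 2, against the 11 and 11 with all 6 libraries. By other scalings, 9 rose and 16 fell after median-of-ratios scaling and 9 and 14 with the length trend removed.

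Glycolytic and hypoxia response genes, which run high in this tissue, fell more often than they rose. In the list, 9 of 42 tested genes rose and 25 fell, with a median change of −0.10. Ldha, which makes lactate, measured 1164, 1163 and 1191 FPKM at 2 months and 942, 952 and 943 at 10 months (−0.31 ± 0.02 SE, adjusted p = 4.9e-05). The lactate exporter Slc16a3 fell from 63.3 ± 1.31 to 42.1 ± 1.896 FPKM, and Aldoc and Pfkp changed by −0.56 and −0.43. Ldhb, the other lactate dehydrogenase subunit, rose from 111 ± 2.19 to 146 ± 1.39 FPKM, and Pfkfb3, which makes an activator of phosphofructokinase, from 103 ± 0.717 to 133 ± 1.10 FPKM. Pgk1 (0.01) did not pass. Of respiratory chain subunits encoded in the nucleus, 5 of 77 tested genes rose and 24 fell (median change −0.08). With the fixed sum 8 rose and 20 fell. Of the mitochondrially encoded genes, 7 of 13 tested genes rose and 0 fell (median change 0.40). Mitochondrial genes took 0.456 to 0.563% of all FPKM at 2 months and 0.561 to 0.690% at 10 months, so these ranges overlap.

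Heat shock chaperones fold proteins, many of them under stress. In the list, 10 of 36 tested genes rose and 7 fell, with a median change of 0.03. The counts were 6 rising without 10-month replicate 1 or without 10-month replicate 2, against the 10 and 7 with all 6 libraries. By other scalings, 7 rose and 10 fell after median-of-ratios scaling and 7 and 8 with the length trend removed. Hspa1b, the inducible HSP70, measured 91.1, 97.5 and 108 FPKM at 2 months and 34.3, 32.9 and 35.0 at 10 months (−1.51 ± 0.06 SE, adjusted p = 1.3e-05). The ages were far apart. Hspb1, the small chaperone HSP27, fell from 400.4 ± 10.004 to 282 ± 1.94 FPKM, and Hspb8 from 51.0 ± 0.765 to 38.9 ± 1.51 FPKM. The others that fell were Hsph1 (−0.23), Dnaja1 (−0.21), Cryab (−0.18) and Stip1 (−0.11), whose call was lost without 2-month replicate 1 or 2 or 10-month replicate 2 or 3 (adjusted p = 0.0753 at the largest). Dnajb2, a co-chaperone, rose by 0.24. The constitutive Hspa8 did not pass (0.01). Heat shock factors bind inverted repeats of nGAAn in promoters, so the pairs GAANNTTC and TTCNNGAA were searched on both strands in the RefSeq promoter table of build GRCr8, 250 bases before to 50 after each start. Each motif is its own reverse complement. Of the 7 falling chaperone genes 5 were matched to the table, all but Hspa1b and Cryab. The motif was found in 5 of these 5 (Dnaja1, Hspb1, Hspb8, Hsph1 and Stip1), 4 of 8 rising ones, 8 of 16 that did not pass and 15.4% of all 27457 promoters. Among the rising ones, the windows of Hspd1 and Hspe1 overlap on opposite strands, so the same matched bases are counted for both. A match is a description of the letters and not of binding. Shown are 3 falling genes and 1 rising gene (Hspe1, the mitochondrial chaperonin HSP10, log2 change 0.19, adjusted p = 0.00162, and adjusted p = 0.106 in the fit over 9 libraries), 5′ to 3′ on the gene's strand, with the matches in capitals.
Hspb1, chr12:26432252-26432551, minus strand: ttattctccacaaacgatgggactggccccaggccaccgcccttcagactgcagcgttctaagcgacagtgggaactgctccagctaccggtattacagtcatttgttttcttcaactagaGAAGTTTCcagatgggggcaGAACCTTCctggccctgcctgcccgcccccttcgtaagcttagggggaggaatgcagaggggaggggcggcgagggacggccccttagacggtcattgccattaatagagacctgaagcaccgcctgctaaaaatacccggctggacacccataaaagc
Hsph1, chr12:10427118-10427417, plus strand: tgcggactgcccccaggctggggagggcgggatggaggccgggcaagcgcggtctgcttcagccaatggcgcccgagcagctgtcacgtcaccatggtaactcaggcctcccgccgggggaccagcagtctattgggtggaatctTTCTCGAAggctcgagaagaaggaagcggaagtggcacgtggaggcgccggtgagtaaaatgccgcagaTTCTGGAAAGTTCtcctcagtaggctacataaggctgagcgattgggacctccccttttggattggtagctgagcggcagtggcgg
Hspb8, chr12:45837058-45837357, plus strand: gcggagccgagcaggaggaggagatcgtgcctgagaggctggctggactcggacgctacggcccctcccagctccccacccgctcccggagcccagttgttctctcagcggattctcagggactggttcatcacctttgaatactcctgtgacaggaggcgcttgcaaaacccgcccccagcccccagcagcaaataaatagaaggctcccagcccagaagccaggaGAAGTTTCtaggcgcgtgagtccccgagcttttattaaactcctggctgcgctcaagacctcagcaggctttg
Hspe1, chr9:64084077-64084376, plus strand: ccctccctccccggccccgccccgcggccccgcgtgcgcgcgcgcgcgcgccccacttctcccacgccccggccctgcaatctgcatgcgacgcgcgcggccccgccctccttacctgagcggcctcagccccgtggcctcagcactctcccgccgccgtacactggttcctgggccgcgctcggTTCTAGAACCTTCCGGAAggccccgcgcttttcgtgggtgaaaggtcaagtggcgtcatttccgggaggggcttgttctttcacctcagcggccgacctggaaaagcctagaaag

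In the promoters above, the motif stands in genes that fell (Hspb1, Hsph1, an HSP110 exchange factor, and Hspb8) and in a gene that rose (Hspe1). Other motifs were searched in the same windows. The hypoxia response core ACGTG was in 12 of 22 promoters of falling glycolysis and hypoxia genes, 2 of 7 of rising ones, 3 of 6 of the others and 19.7% of all promoters. The sterol regulatory element in the form TCACNCCAC was in none of 17 promoters of falling sterol genes, 3 of rising ones and 8 of the others, and in 1.13% of all promoters, so these letters are not in these windows. The E-box CACGTG, which holds the letters of the hypoxia core, was in 2 of 6 promoters of falling clock genes, 1 of 6 of rising ones, 1 of 5 of the others and 6.65% of all.

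In the ER, where secreted matrix proteins fold, 5 of 38 tested genes rose and 13 fell (median change −0.03). Edem2, which marks misfolded glycoproteins for disposal, fell from 11.3 ± 0.728 to 7.89 ± 0.198 FPKM, and Dnajb11 and Selenok changed by −0.24 and −0.23. Hspa5, the main ER chaperone BiP, rose from 89.0 ± 0.485 to 106 ± 0.752 FPKM. Of the pathway terms, protein processing in the ER had 20 rising and 42 falling of 146 tested genes, N-glycan biosynthesis 4 and 10 of 44 (2 rising without 2-month replicate 2, and 6 and 9 with the fixed sum), and lysosome 13 and 46 of 104 with a median change of −0.09 (18 and 38 with the fixed sum). Subunits of the vacuolar proton pump, which acidifies lysosomes, fell in 7 of 19 cases and rose in 1 (6 and 2 with the fixed sum).

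Among cytosolic ribosomal and splicing genes, rises outnumbered falls. Cytosolic ribosomal proteins are among the most expressed genes in any cell. In the list, 61 of 97 tested genes rose and 1 fell, with a median change of 0.24. Of 29 tested genes for serine and arginine-rich splicing factors and hnRNPs, the proteins that choose splice sites, 22 rose and 1 fell, with a median change of 0.20. In the spliceosome term 50 of 133 genes rose and 6 fell, and 40 and 15 after median-of-ratios scaling, 42 and 11 after quantile normalization and 43 and 15 with the length trend removed, so the excess of rises shrank and did not turn. For cytosolic ribosomal proteins the counts were 58 rising and 4 falling after median-of-ratios scaling, and for the splicing factors 18 rising and 1 falling. Ribosomal protein genes have many near-identical copies in the genome, so their levels are uncertain where reads could be split. Zinc finger genes named Zfp had 53 rising and 12 falling of 214 tested genes. The counts were 33 rising without 10-month replicate 1 and 35 rising without 10-month replicate 2, against the 53 and 12 with all 6 libraries. By other scalings, 41 rose and 18 fell after median-of-ratios scaling, 34 and 20 after quantile normalization and 36 and 18 with the length trend removed. For mitochondrial ribosomal proteins the counts were 13 rising and 6 falling of 74 tested genes. The counts were 6 rising without 10-month replicate 1, 7 rising without 10-month replicate 2, 1 falling without 2-month replicate 2 and 3 falling without 2-month replicate 1 or without 10-month replicate 1 or without 10-month replicate 2, against the 13 and 6 with all 6 libraries. By other scalings, 10 rose and 9 fell after median-of-ratios scaling, 10 and 10 after quantile normalization and 12 and 9 with the length trend removed.

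**Figure D4:**
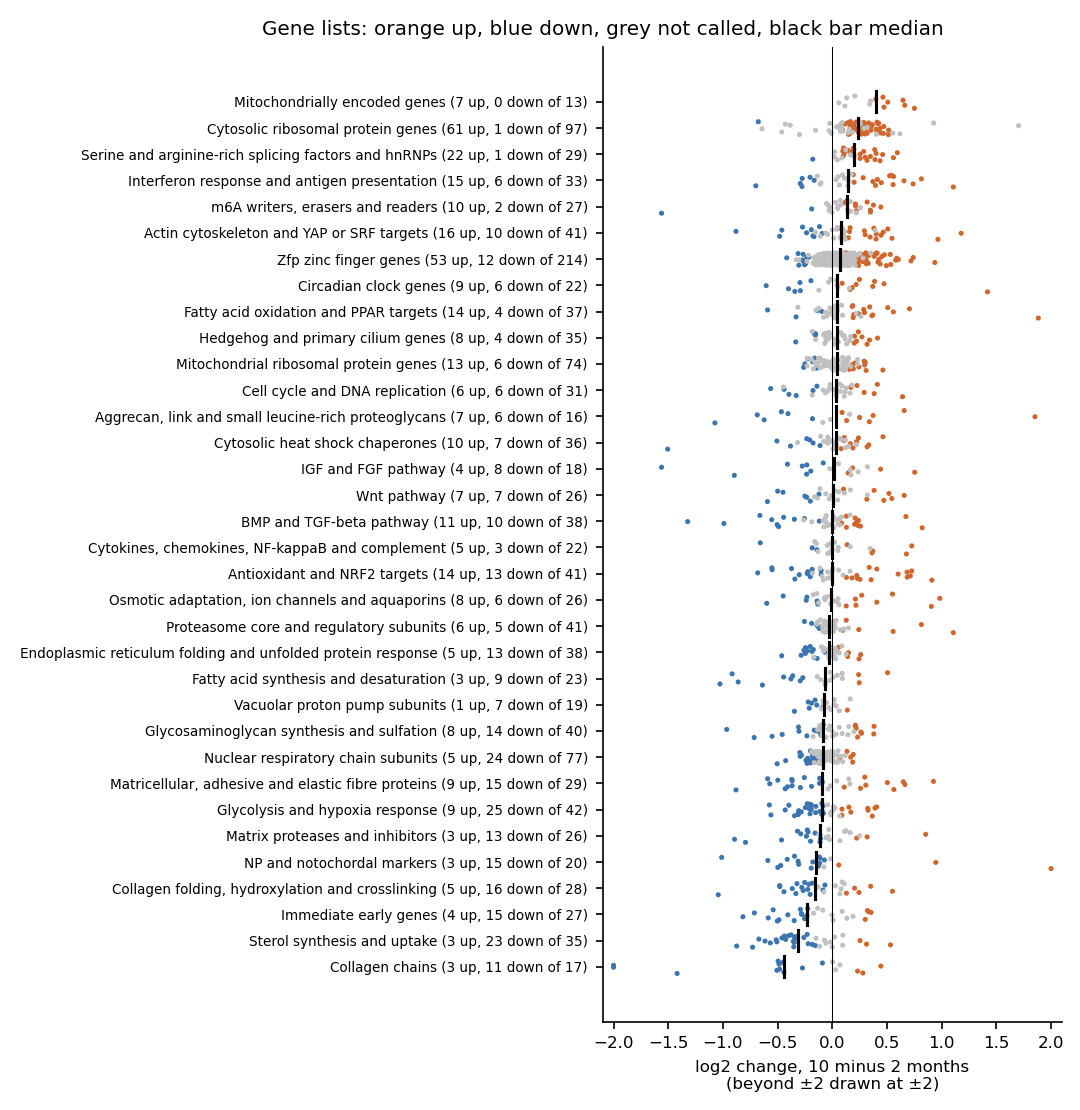
Log2 change from 2 to 10 months (horizontal axis) of the tested members of the 34 gene lists with at least 10 tested genes, 1 row per list ordered by median, with 1 point per gene and the median as a black bar; orange points rose, blue points fell and grey points did not pass. Collagen chains have the lowest median (−0.44) and mitochondrially encoded genes the highest (0.40), and most other medians lie within 0.2 of 0.

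The series as a whole concerns m6A, which writer proteins set, erasers remove and readers bind, so the RNA of these proteins was examined. Of the writers and erasers, Mettl3, the catalytic subunit, measured 15.6, 15.5 and 16.1 FPKM at 2 months and 15.3, 15.2 and 15.3 at 10 months and did not pass (log2 change −0.03 ± 0.03 SE, adjusted p = 0.402). Mettl14, its partner, rose from 9.44 ± 0.499 to 11.1 ± 0.420 FPKM (adjusted p = 0.0140), but not in the fit over 9 libraries (adjusted p = 0.0803). Wtap, which anchors the complex, did not pass (0.08, adjusted p = 0.0947), although it did without 2-month replicate 1 (adjusted p = 0.0446). The eraser Fto fell from 27.4 ± 1.13 to 24.0 ± 0.786 FPKM, and Alkbh5 did not pass (0.05). Over the list, 10 of 27 tested genes rose and 2 fell (median change 0.13). With the length trend removed 7 rose and 3 fell. The readers Ythdc1, in the nucleus, and Hnrnpa2b1, a splicing regulator, measured 34.4, 33.5 and 35.8 FPKM at 2 months and 46.1, 43.8 and 45.6 at 10 months and 179, 176 and 190.4 FPKM at 2 months and 231, 235 and 228 at 10 months. Both were higher in every 10-month library. Fmr1, an RNA-binding protein of translation, changed by 0.32. These are levels of RNA for m6A proteins and say nothing of m6A itself.

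Actin-binding genes and targets of the factors SRF and YAP moved in both directions. In the list, 16 of 41 tested genes rose and 10 fell, with a median change of 0.08. Tagln, transgelin, a marker of contractile cells, measured 415, 406 and 425 FPKM at 2 months and 802, 784 and 854 at 10 months (0.97 ± 0.04 SE, adjusted p = 1.1e-05). The groups were far apart. Nexn, nexilin, rose from 4.37 ± 0.229 to 11.2 ± 0.870 FPKM, and Actn4, alpha-actinin-4, from 335 ± 6.45 to 436 ± 4.43 FPKM. Myl6, a myosin light chain, fell from 346 ± 3.62 to 248 ± 5.27 FPKM. Immediate early genes, which respond within minutes to growth signals or handling of tissue, mostly fell: 4 of 27 tested genes rose and 15 fell (median change −0.23). Klf4 changed by −0.71, Gadd45g by −0.54 and Btg2 by −0.50. Fos did not pass, with 24.1, 25.7 and 22.7 FPKM at 2 months and 23.0, 24.1 and 21.1 at 10 months.

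Clock genes swing over the day, and the time of tissue collection is not in the labels. In the list, 9 of 22 tested genes rose and 6 fell, with a median change of 0.05. Per2, a repressor of the clock, rose from 10.9 ± 0.169 to 15.6 ± 0.189 FPKM. Nr1d1 (REV-ERB-alpha), a repressor that peaks opposite to the activator Bmal1, fell from 47.6 ± 1.24 to 35.8 ± 0.379 FPKM, and Bhlhe40 changed by −0.20. Clock did not pass (−0.01). Any part of sampling time was not tested.

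Antioxidant genes went both ways. In the list, 14 of 41 tested genes rose and 13 fell, with a median change of −0.0042. After median-of-ratios scaling 12 rose and 14 fell. The metallothioneins, which bind zinc and copper, rose: Mt2A measured 185, 177 and 178 FPKM at 2 months and 339, 341 and 337 at 10 months (0.91 ± 0.02 SE, adjusted p = 4.5e-06) and Mt1 rose from 104 ± 2.11 to 168 ± 4.23 FPKM. The gene listed as Mt1 lies on chromosome 17, away from Mt2A on chromosome 19, and spans only the 389 bases of its transcript. Reads of near-identical copies cannot be told apart, so its level is uncertain. Glrx3, an iron-sulfur glutaredoxin, rose from 58.5 ± 0.277 to 94.5 ± 1.94 FPKM, and Txnip, which binds thioredoxin, from 339 ± 0.911 to 449 ± 3.78 FPKM. Gpx7, an ER peroxidase, changed by −0.55. For osmotic adaptation and ion transport, 8 of 26 tested genes rose and 6 fell (median change −0.01). By other scalings, 7 rose and 10 fell after median-of-ratios scaling and 6 and 10 with the length trend removed. Slc6a6, the taurine transporter that cells use to hold volume in salt, measured 9.41, 8.47 and 8.66 FPKM at 2 months and 18.003, 16.5 and 17.8 at 10 months (0.91 ± 0.05 SE, adjusted p = 5.0e-05). Slc4a11, a borate and proton transporter of the bicarbonate family, rose from 1.80 ± 0.0921 to 4.54 ± 0.190 FPKM, and Slc12a2, the sodium-potassium-chloride cotransporter, from 285 ± 5.56 to 344 ± 10.7 FPKM. Sgk1, a kinase induced by salt and steroids, fell from 10.05 ± 0.215 to 6.30 ± 0.315 FPKM.

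Genes of the interferon response and antigen presentation rose more often than they fell. In the list, 15 of 33 tested genes rose and 6 fell, with a median change of 0.15. Psmb8, an immunoproteasome subunit, measured 1.31, 1.48 and 1.33 FPKM at 2 months and 4.19, 4.30 and 3.85 at 10 months (1.11 ± 0.06 SE, adjusted p = 5.1e-05), and Psme1, an activator of the proteasome, rose from 25.5 ± 1.77 to 45.6 ± 1.18 FPKM. Mx2 and Gbp2, interferon-induced GTPases, rose by 0.74 and 0.52. The list of proteasome subunits, which holds Psmb8 and Psme1 too, had 6 rising and 5 falling of 41 tested genes. The counts were 3 falling without 10-month replicate 1, against the 6 and 5 with all 6 libraries. By other scalings, 4 rose and 13 fell after median-of-ratios scaling, 5 and 6 after quantile normalization and 4 and 9 with the length trend removed. For cytokine, NF-kappaB and complement genes, 5 of 22 tested genes rose and 3 fell (median change −0.0011). The counts were 3 rising without 2-month replicate 2 or without 2-month replicate 3 or without 10-month replicate 1 or without 10-month replicate 2, against the 5 and 3 with all 6 libraries. By other scalings, 4 rose and 7 fell after median-of-ratios scaling, 3 and 6 after quantile normalization, 4 and 6 with the length trend removed and 6 and 2 with the fixed sum. Tnfrsf11b, osteoprotegerin, the decoy that blocks osteoclast formation, was abundant and measured 382, 380.2 and 392 FPKM at 2 months and 634, 621 and 593 at 10 months (0.68 ± 0.03 SE, adjusted p = 1.6e-05). The complement shields Cd59 and Cd55 rose from 10.3 ± 0.362 to 17.7 ± 0.891 FPKM and from 21.9 ± 0.734 to 28.5 ± 0.352 FPKM. Ccl7, a chemokine, was low and changed by −0.66.

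For cell cycle genes, 6 of 31 tested genes rose and 6 fell (median change 0.04). The counts were 3 falling without 2-month replicate 2 or without 10-month replicate 1, against the 6 and 6 with all 6 libraries. The D-type cyclins, which start the cycle, moved apart: Ccnd1 measured 23.1, 22.6 and 22.6 FPKM at 2 months and 36.6, 35.2 and 36.4 at 10 months and Ccnd2 126, 122 and 119 FPKM at 2 months and 82.9, 81.4 and 82.9 at 10 months. The former rose (0.64 ± 0.03 SE, adjusted p = 1.8e-05), and the latter fell (−0.56 ± 0.03 SE, adjusted p = 2.3e-05). Cdkn1c, the inhibitor p57 of resting cells, rose from 300.4 ± 17.6 to 392 ± 5.33 FPKM. The arrest genes Cdkn2a and Cdkn1a did not pass, with 0.09 and 0.18.

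Isoform shares changed for few genes. Of 2792 isoforms of 1339 genes tested, 10 (0.358%) of 6 genes passed, 6 with a higher and 4 with a lower share at 10 months, and 198 had an unadjusted p under 0.05 (limma). For Tpd52, Lyar, Prdm2 and Slfn13, a transcript listed at or near 0 at 2 months was measured at 10 months beside another transcript of its gene. Coordinates are those of the deposited table (build: not given in the sources used here). For Tpd52, a vesicle trafficking protein, the transcript at chromosome 2, 95008477 to 95039076, plus strand (6 exons) was listed at 0 in the 3 libraries of 2 months and at 49.1, 46.7 and 50.4 FPKM at 10 months (log2 change of the ratio to the gene's other transcripts 7.18 ± 0.17 SE, adjusted p = 1.1e-04). The longer transcript at chromosome 2, 95008311 to 95040514, plus strand (8 exons) measured 39.9, 39.5 and 37.0 FPKM at 2 months and 27.5, 27.6 and 23.8 at 10 months. At 20 months the first was at 0, 50.2 and 14.5 FPKM, so that libraries of 1 age differed from each other.

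For Lyar, a nucleolar protein, the transcript at chromosome 14, 77308218 to 77321783, minus strand (9 exons) was listed at 0 at 2 months, at 7.67, 6.24 and 6.49 FPKM at 10 months (log2 change of the ratio to the gene's other transcripts 6.49 ± 0.23 SE, adjusted p = 4.5e-04), and at 0 in all 3 libraries of 20 months. For Prdm2, a zinc finger methyltransferase, the transcript at chromosome 5, 161773758 to 161875362, minus strand (9 exons) was at 0.0181, 0.0154 and 0 FPKM and then at 7.55, 6.84 and 5.15 (log2 change of the ratio to the gene's other transcripts 4.43 ± 0.27 SE, adjusted p = 0.00365). In these cases the spans of the rising and falling transcripts on the chromosome mostly overlap. Overlap of their exons was not examined, and for Tpd52 the transcripts are 924 and 2597 bases long. The part of the authors' assignment of reads between such transcripts was not tested. Slfn13, a Schlafen family protein, had a transcript listed at 0 at 2 months and at 4.10, 4.12 and 5.65 FPKM at 10 months. The call of Oxr1, an oxidation resistance protein, was lost when any library except 2-month replicate 2 was left out (for its transcript at chromosome 7, 80351774 to 80788094, plus strand (17 exons), an adjusted p of up to 0.144, without 10-month replicate 2). The number of isoform calls rose to 24 without 2-month replicate 1 and 17 without 2-month replicate 2, of which 9 and 10 were among the 10 above, and it was 5 for genes with a summed FPKM of at least 20. In the fit over all 9 input libraries 7 isoforms were called, 5 of them among these 10, and neither Tpd52 (adjusted p = 0.326) nor Oxr1 (adjusted p = 0.769) was called there.

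**Figure D5:**
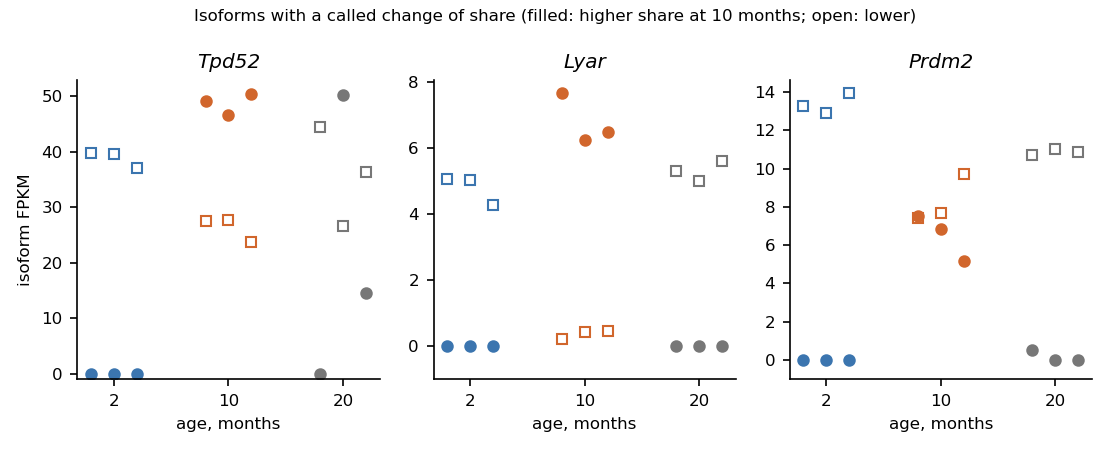
FPKM (vertical axis) of 2 transcripts each of Tpd52, Lyar and Prdm2 in every library at 2, 10 and 20 months (horizontal axis); filled circles mark the transcript whose share is higher at 10 months and open squares the one whose share is lower. The libraries of 2 months and those of 10 months lie close together within an age, while at 20 months the Tpd52 values of single libraries range from 0 to 50.2 FPKM.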

How the data were processed

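The values are FPKM per gene and per transcript for each input library, deposited by the authors, per the file headers, with read coverage per base (a signal not scaled for depth) deposited beside the transcripts, per the file headers. NP tissue gave total RNA, which was selected for poly(A) and fragmented, per the labels' protocols. StringTie 1.3.4d, HISAT2 2.0.4, cutadapt 1.9, edgeR and DESeq2 are listed in the submitters' processing notes, with no roles. Genome build, annotation and strandedness: not given in the sources used here, so antisense partners and near-identical copies cannot be told apart.

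The gene test was limma's (version 3.58.1, R 4.3.3, moderated, with the variance trended on level) on log2(FPKM + 1), a scale that understates the change of low genes, and adjusted over all 11708 genes. Isoforms were tested on the log2 ratio of a transcript's FPKM to that of the gene's others, with 0.5 added to both, for genes whose 2 or more transcripts summed to a mean FPKM of 5 or more, and transcripts with a mean share of 10 to 90%. The code was tested on simulated data. The members, lists, motifs and tests were chosen with earlier results of these data known, so a list is described by counts and median beside those of all genes, with no test of its own. Named are the 12 largest rises and falls whose ages do not overlap, with at least 5 FPKM in the higher group and no placeholder symbol, up to 6 called genes with the smallest adjusted p for each main list and 4 for each other list, and Mettl3, Mettl14, Wtap, Fto and Alkbh5. Some genes that this rule gives are not reported here. Krt8, Krt19, Tbxt, Cdh6, Vim, Ca3, Fn1, Tgfb3, Id2, Id3, Id4, Lss, Ebp, Insig1, Abca1, Fasn, Pgk1, Hsph1, Dnaja1, Cryab, Stip1, Hspa8, Hspe1, Nexn, Plaur, Mmp23, Fos, Clock, Cdkn1a and Cdkn2a were chosen after their values were seen, as were the marker genes named for being at or near 0. Replicate numbers do not pair the libraries, and each library, scaling, pseudocount and filter was varied in turn. The tables give no counts, so the depth of each library was taken from the ratio of FPKM to coverage, and no counting interval is given. Promoters are from RefSeq.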

Additional observations from a re-analysis of the deposited data

How the results depend on the processing

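The gene counts of 2913 rising and 1894 falling stayed within 1.5 times under other pseudocounts, filters, scalings and array weights. The same held for a fit over all 9 input libraries, a replicate block and the loss of any 1 library (2314 to 2536 rising and 1532 to 1680 falling). The gene counts fell to 31 and 41 with a 2-fold minimum in FPKM + 1, by construction. Isoform calls numbered 5 with a summed FPKM of at least 20, where fewer are tested, and 12 to 24 without 1 library, a cause not tested. Samples with the same replicate number did not deviate together (correlations of 0.0106, 0.0174 and −0.0028). With the replicate block 2579 genes rose, 1717 fell and 6 isoforms were called, with Prdm2, Slfn13 and Oxr1 lost. Of 174 named genes that were called, 15 lost the call under some setting, 13 of them in the fit over 9 libraries, 6 without some library and 4 under another scaling. Most named genes were picked for a small adjusted p or a large change, so these losses are not a measure for all genes. Over all genes, the fit over 9 libraries called 2219 rising and 1332 falling. No named gene changed direction while called. Fewer of the low genes fell or rose (8.23% and 19.1% of the lowest of 4 equal bins by level, 29.4% and 28.8% of the highest). The parts of the depth, 4.35 to 5.04 gigabases, and of the log2(FPKM + 1) scale in this were not tested.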
